A study of Homo sapiens with 3 samples.

Results

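Mucins and the enzymes that build their O-linked sugars were examined in HCT-116 cells after silencing of *APC*. The genes were chosen by symbol and not by a limit on their values, though earlier results of these data were known. They were the polypeptide N-acetylgalactosaminyltransferases named *GALNT* or *GALNTL* and all mucins listed under a numbered symbol (*MUC* genes). The *GCNT* branching enzymes, *C1GALT1*, *C1GALT1C1*, *ST3GAL1*, *ST6GALNAC1* and *ST6GALNAC2* were also taken. This gave 42 of the 23131 genes in the deposited table. *WBSCR17*, the older symbol of GALNT17 in the same enzyme family, falls outside the rule and was listed at 0 in both libraries. The members comprise 19 *GALNT* enzymes, 10 core, branching or sialyl enzymes, 9 membrane mucins and 4 secreted mucins. *GALNT7* receives most room because the study listed it among its candidate targets from screening. It was not among the candidates that the study took on to further assays. The study made that choice partly on these same libraries, so the level of *GALNT7* is given here as a description.

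HCT-116 is a colon carcinoma line with wild-type *APC* and a serine 45 deletion in *CTNNB1* (β-catenin), and both libraries share this background. Cells were transfected on 2 consecutive days with Dharmafect 2 and a pool of anti-*APC* siRNA, and RNA was harvested 48 hours after the second transfection. The control library is labelled both as untransfected and as treated with reagent alone (mock). The label of the deposited column names no siRNA, so the comparison includes any effect of siRNA delivery. The series also has a library with scrambled siRNA, which was not analysed here. For *GALNT7* the study itself reported a level with scrambled siRNA close to the untransfected level. It also reported lower *GALNT7* in mouse colon adenomas than in non-adenoma colon tissue. Each condition was 1 library, so no difference has a replicate check and no p-value was computed. Levels are FPKM (read numbers divided by transcript length and by the size of the library). They can be set side by side between genes. A log2 ratio is always anti-*APC* over untransfected.

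Mucin-type O-glycosylation starts in the Golgi, where a GALNT enzyme attaches N-acetylgalactosamine to a serine or threonine. Core 1 synthase (*C1GALT1*, with its chaperone *C1GALT1C1*) adds galactose, GCNT enzymes branch the chain, and sialyltransferases cap it. Mucins are the proteins with the densest O-glycans. In the colon, goblet cells secrete MUC2 to form the mucus gel, and membrane mucins coat the surface of absorptive cells. Some GALNT enzymes act on bare peptides, whereas others, GALNT7 and GALNT10 among them, prefer peptides that already carry N-acetylgalactosamine.

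*APC* had 3.43 FPKM in the anti-*APC* library and 9.15 FPKM in the untransfected library, and the WNT feedback gene *AXIN2* had 28.7 and 4.11 FPKM. Of 10 colon epithelial markers, 6 had a mean of at least 1 FPKM, and *KRT20*, *VIL1*, *CDX1* and *LGALS4* were below this. The 10 summed to 1295 FPKM after silencing and 1650 FPKM in the control. The 6 goblet markers summed to only 0.387 and 0.519 FPKM, with *TFF3* and *CLCA1* listed at 0 in both libraries. Summed fibroblast markers had 3.13 and 2.88 FPKM, nearly all of it *COL1A1*, and immune markers had 5.13 and 8.99 FPKM, nearly all of it *CD68*. Endothelial markers summed to 0.0415 and 0.0725 FPKM. The table lists no read counts, so absolute depth is unknown. Relative depth can be read from scarce genes, in which FPKM comes in steps of single reads: the most frequent ratio, seen in 390 genes, places the FPKM worth of 1 read 1.10-fold higher in the anti-*APC* library.

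A gene was counted as differing when its mean over both libraries was at least 1 FPKM, both values were above 0 and the ratio was at least 1.5-fold. By this rule 6.61% of the 12063 genes with such levels were lower after anti-*APC* siRNA and 2.56% were higher. Among the 42 members, 17 had a mean of at least 1 FPKM and all 17 were enzymes. Of these 17, 1 was lower by 1.5-fold (*ST6GALNAC2*) and 0 were higher, against the 6.61% and 2.56% of all genes. Members just inside and outside that limit were *ST6GALNAC2* at 1.62-fold lower, and *GALNT12*, *GALNTL4* and *GALNT7* at 1.49-fold, 1.49-fold and 1.47-fold lower. When the larger value had to exceed the smaller by 25%, 7 of the 17 were lower (41.2%) and 0 were higher, where 18.4% of all genes were lower and 7.17% were higher. At 2-fold 0 of the 17 differed in either direction, where 1.37% of all genes were lower and 0.953% were higher. By any amount 13 were lower and 4 higher, where 58.6% of all genes were lower and 41.4% higher. The median log2 ratio of the 17 was -0.22, beside -0.05 over all 12063 genes. Ratios depended on level: the median over all genes was -0.19 between 1 and 3 FPKM, -0.11 between 3 and 10 FPKM and -0.04 between 10 and 30 FPKM. The part of this trend in the members' ratios was not tested.

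*GALNT7* (chromosome 4 of GRCh37, 174089962 to 174245118, plus strand) encodes a glycopeptide-preferring transferase. It had 13.3 FPKM in the anti-*APC* library and 19.6 FPKM in the untransfected library. It was thus at 0.679 of the untransfected level, a log2 ratio of -0.56. Among the 3727 genes with a mean between 10 and 30 FPKM, 3.97% had a ratio as low or lower, and the 5th and 95th percentiles of log2 ratios were -0.50 and 0.34. *GALNT7* was alone at its locus in the table. Subtracting the median of all genes gave a log2 ratio of -0.51, and adding 1 FPKM to both libraries gave -0.53.

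**Figure D1:**
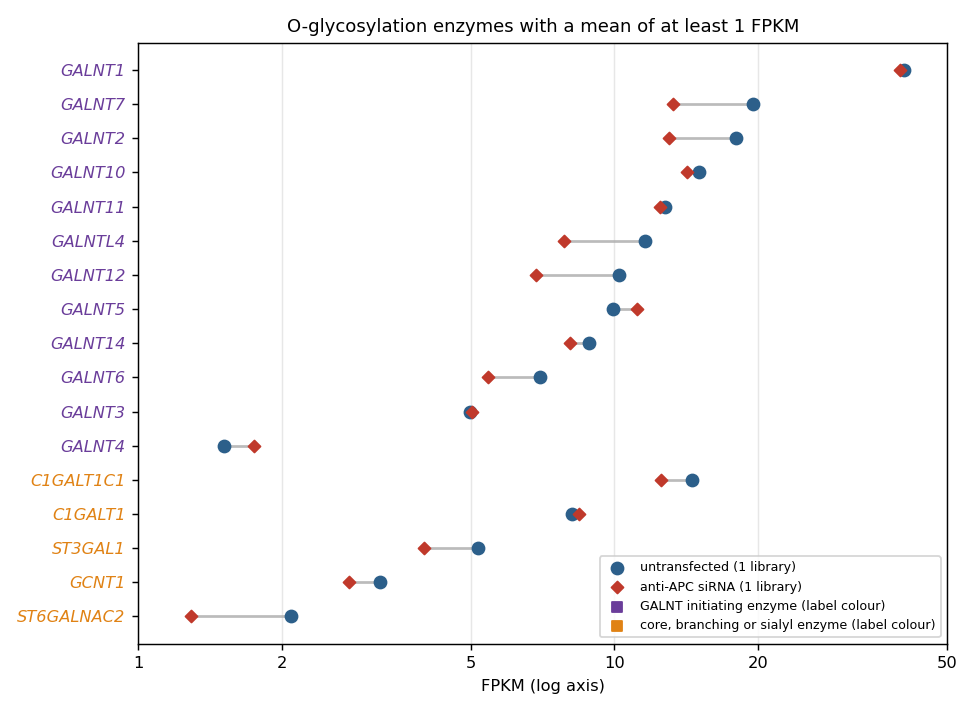
FPKM (log axis) of the 17 enzymes with a mean of at least 1 FPKM, 1 library per point, circles for untransfected and diamonds for anti-*APC* siRNA. The widest gaps to the left of the circles belong to *GALNT7*, *GALNT2*, *GALNTL4*, *GALNT12*, *GALNT6*, *ST3GAL1* and *ST6GALNAC2*, whereas *GALNT1*, *GALNT11* and *GALNT3* nearly coincide.

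Other *GALNT* enzymes lay on the same side as *GALNT7*. *GALNT12* (chromosome 9, 101569952 to 101612363), whose product also prefers glycopeptides, had 6.84 FPKM after silencing and 10.2 FPKM in the control, a log2 ratio of -0.58. *GALNTL4*, now named GALNT18 (chromosome 11, 11292424 to 11643552), had 7.82 FPKM after silencing and 11.6 FPKM in the control, a log2 ratio of -0.57. Both ratios were slightly lower than that of *GALNT7*, and genes of their level scatter more: 8.32% and 8.50% of the 3222 genes between 3 and 10 FPKM had ratios as low or lower. *GALNTL4* shares its locus in the table with *CSNK2A1P*, a casein kinase gene copy, which had 110 FPKM after silencing and 100.2 FPKM in the control, and whether reads were divided correctly between them was not tested. *GALNT2* (chromosome 1, 230193737 to 230417868), a broadly expressed enzyme that starts O-glycosylation on bare peptides, had 13.0 FPKM after silencing and 18.004 FPKM in the control, a log2 ratio of -0.47. Of the genes between 10 and 30 FPKM, 6.28% had ratios as low or lower. *GALNT6*, a close relative of *GALNT3*, had 5.42 FPKM after silencing and 6.98 FPKM in the control, a log2 ratio of -0.36 that 20.1% of genes in its range of levels reached.

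The remaining 7 of the 12 *GALNT* genes with a mean of at least 1 FPKM differed by less than 25%. *GALNT1*, the most abundant and another starter of O-glycosylation, had 39.8 and 40.7 FPKM (in this order throughout, silenced first). *GALNT10*, which shares the preference of *GALNT7* for glycopeptides, had 14.2 and 15.1 FPKM, a log2 ratio of -0.08. It shares a locus in the table with *FLJ38109*, which had under 1 FPKM in both libraries. *GALNT11*, which modifies NOTCH1 and LDL receptor relatives, had 12.5 and 12.8 FPKM. *GALNT14*, known for O-glycosylation of TRAIL receptors, had 8.06 and 8.83 FPKM, a log2 ratio of -0.13. *GALNT3*, which protects the hormone FGF23 from cleavage, had 5.03 and 4.97 FPKM. The members of this group on the other side of the control were *GALNT5*, with 11.2 FPKM after silencing and 9.94 FPKM in the control (log2 ratio 0.17), *GALNT4*, with 1.75 and 1.52 FPKM (log2 ratio 0.21), and *GALNT3* (log2 ratio 0.02). *GALNT4* lies at a locus with *POC1B* and their read-through transcript *POC1B-GALNT4*, and the sum of the 3 genes had a log2 ratio of 0.28. *GALNT1* and *GALNT11* changed sides when the median of all genes was subtracted, to log2 ratios of 0.02 and 0.01.

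**Figure D2:**
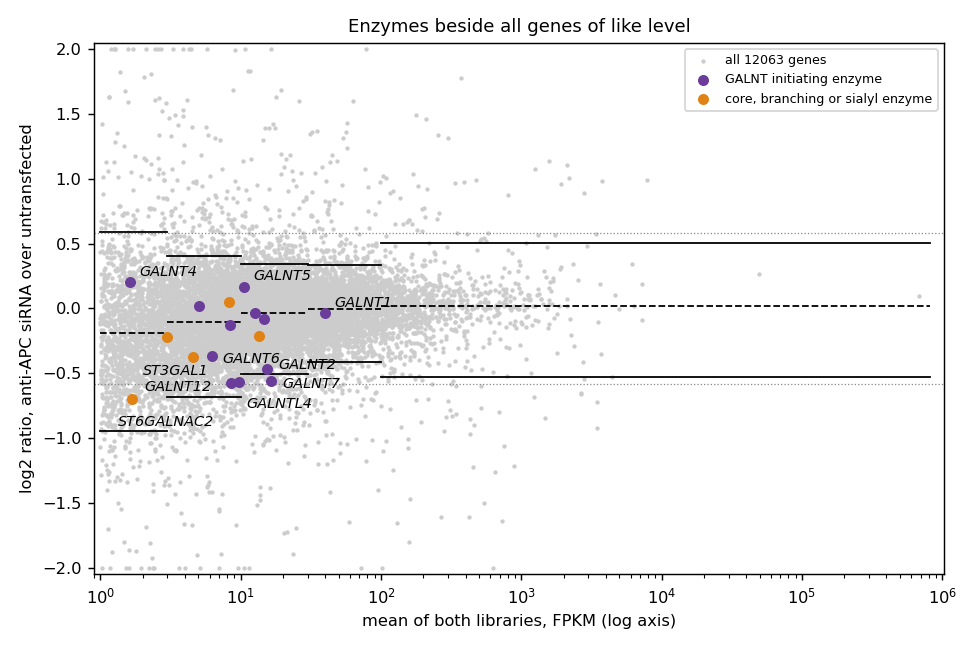
Log2 ratio (anti-*APC* siRNA over untransfected) against the mean of both libraries in FPKM (log axis) for all 12063 genes (grey, ratios past 2 in size drawn at the edge) and the 17 enzymes (coloured). Solid lines are the 5th and 95th percentiles and dashed lines the medians of all genes in 5 ranges of level, and dotted lines mark 1.5-fold. *GALNT7* lies below the 5th percentile of its range, and the other 16 enzymes lie between the percentile lines. *GALNT12* and *GALNTL4*, with slightly lower ratios than *GALNT7*, have means of 8.53 and 9.72 FPKM. They are thus set against the range from 3 to 10 FPKM, where the 5th percentile is -0.68 and not -0.50.

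Promoter sequences are shown for *GALNT7* and *GALNT12*, glycopeptide-preferring enzymes picked for their ratios just short of 1.5-fold lower, and for *MUC13*, the member whose promoter holds both a TCF and an AP-1 word. *GALNT10* and *GALNT4*, which also prefer glycopeptides, had log2 ratios of -0.08 and 0.21. Each run is the 250 bases before the transcription start, 5′ to 3′ on the strand of the gene, from RefSeq on GRCh38.p14. In the *GALNT* promoters capitals mark the GC box word GGGCGG on either strand, overlaps included. In *MUC13* they mark TGAGTCA, an AP-1 word, and CTTTGTA, which is the TCF word TACAAAG read on the opposite strand.
GALNT7 (chr4:173168561-173168810, plus strand): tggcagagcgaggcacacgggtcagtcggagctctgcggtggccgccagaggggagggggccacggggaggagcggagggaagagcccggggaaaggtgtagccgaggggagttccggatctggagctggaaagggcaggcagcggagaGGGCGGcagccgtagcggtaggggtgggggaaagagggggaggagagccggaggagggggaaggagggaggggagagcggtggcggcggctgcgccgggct
GALNT12 (chr9:98807420-98807669, plus strand): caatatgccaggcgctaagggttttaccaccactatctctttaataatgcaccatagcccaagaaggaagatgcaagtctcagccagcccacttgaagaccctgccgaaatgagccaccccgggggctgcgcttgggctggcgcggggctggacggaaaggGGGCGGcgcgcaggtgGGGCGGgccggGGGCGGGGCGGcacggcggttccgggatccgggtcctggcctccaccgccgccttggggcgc
MUC13 (chr3:124934752-124935001, minus strand): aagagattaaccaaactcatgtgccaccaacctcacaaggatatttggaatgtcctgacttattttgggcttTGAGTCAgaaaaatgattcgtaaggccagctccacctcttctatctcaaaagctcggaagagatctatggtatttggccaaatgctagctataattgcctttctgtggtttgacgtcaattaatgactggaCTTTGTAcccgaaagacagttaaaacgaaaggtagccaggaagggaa
The *GALNT7* and *GALNT12* promoters are 72.4% and 67.2% G or C, against 41.6% for *MUC13*. The AP-1 word of *MUC13* begins 178 bases and its TCF word 47 bases before the start. Promoters were found for 28 of the 42 members, 43 promoters in all, and not for *GALNT4*, *GALNT5*, *GALNT6*, *GALNT8*, *GALNTL4*, *GCNT7*, *MUC15*, *MUC20*, *MUC21*, *MUC5B*, *MUC6*, *ST3GAL1*, *ST6GALNAC1* and *ST6GALNAC2*. The TCF words searched on both strands were AACAAAG, the related word ATCAAAG, and also the word TACAAAG and the word TTCAAAG. Any of these was found in 4 of the 43, which belong to *GALNT13*, *GCNT3*, *MUC7* and *MUC13*, and in 12% of all 35116 promoters. The AP-1 word was found in 2 of the 43, of *MUC13* and *MUC17*, and in 4.2% of all promoters. None of these promoters belongs to the 11 matched members with at least 1 FPKM. The GC box word was in 21 of the 43 and in 42.6% of all promoters. It was found for 10 of the 11 matched members with at least 1 FPKM, *GALNT1*, *GALNT10* and *C1GALT1* among them. These matches are descriptions of the letters in this window. The study reported APC-bound regions assigned to *GALNT7*, all with a motif of TCF7L2 (a TCF factor) but not all with an AP-1 motif. This window was not compared with those regions.

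Because FPKM are scaled to length, the *GALNT* levels can be added. The 19 *GALNT* genes summed to 139 FPKM in the anti-*APC* library and 160.4 FPKM in the untransfected library, a log2 ratio of -0.21. *GALNT1* made up 28.6% of this sum in the anti-*APC* library and 25.3% in the control. *GALNT7* had rank 2 in the untransfected library with 12.2% and rank 3 in the anti-*APC* library with 9.57%, behind *GALNT10*, which had rank 4 in the untransfected library. This shift of -2.64 percentage points was the largest decrease of any member of the sum, followed by *GALNT2* at -1.84. *GALNT5* gained 1.84 points and *GALNT1* 3.26 points. A share also rises when the sum is lower: the level of *GALNT1* was 39.8 FPKM after silencing and 40.7 FPKM in the control. Without *GALNT7* the family summed to 126 and 141 FPKM, a log2 ratio of -0.16. Thus *GALNT7* carried 29.3% of the summed difference. The 5 members whose control value was at least 25% higher, picked for that reason, summed to 46.4 and 66.4 FPKM, and the other 14 to 92.5 and 94.0 FPKM. With no spread between replicates, neighbours in this order cannot be told apart by a test.

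**Figure D3:**
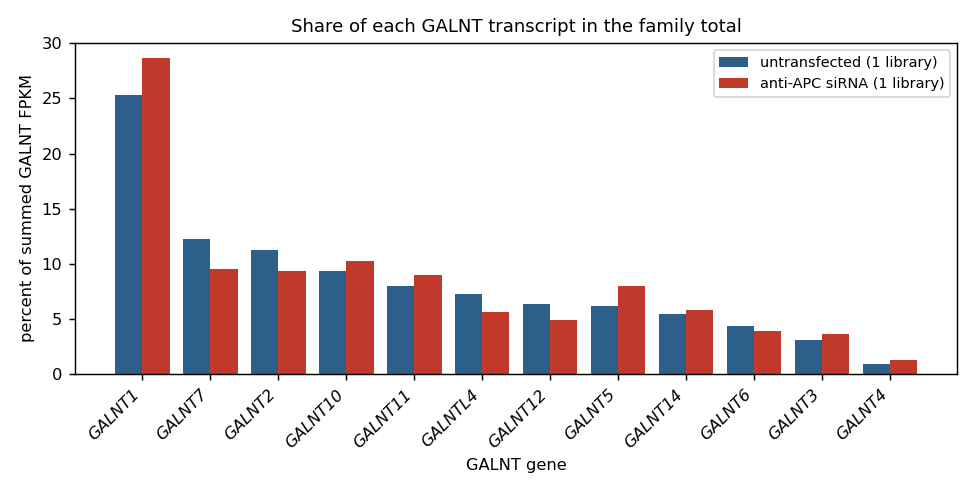
Percent of the summed FPKM of the 19 *GALNT* genes held by each of the 12 with a mean of at least 1 FPKM, 1 library per bar, ordered by the untransfected library. The bar of *GALNT7* drops from 12.2% to 9.57%, whereas that of *GALNT1* goes from 25.3% to 28.6%. The family sum was lower after silencing, and the level of *GALNT1* itself was not higher.

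Downstream of the first sugar, core 1 synthase was near its control level. *C1GALT1* had 8.42 FPKM after silencing and 8.16 FPKM in the control, a log2 ratio of 0.05, and its chaperone *C1GALT1C1* had 12.6 and 14.6 FPKM, a log2 ratio of -0.22. *GCNT1*, which starts the core 2 branch, had 2.76 and 3.22 FPKM, a log2 ratio of -0.22 that 47.5% of genes between 1 and 3 FPKM reached. Of the sialyltransferases, *ST3GAL1*, which caps the galactose of core 1, had 3.98 and 5.16 FPKM, a log2 ratio of -0.37. *ST6GALNAC2* (chromosome 17, 74561459 to 74583038), which places sialic acid on the first sugar, had 1.29 and 2.09 FPKM. Its log2 ratio of -0.70 was the lowest of the 17 enzymes, but at this level 12.3% of the 1723 genes between 1 and 3 FPKM had ratios as low or lower. With 1 FPKM added to both libraries it was no longer 1.5-fold lower. The 10 enzymes of this group summed to 29.6 and 34.0 FPKM, a log2 ratio of -0.20. The other 5 were scarce. *GCNT3*, the core 2 and core 4 enzyme of mucus-secreting cells, had 0.177 FPKM after silencing and 0.323 FPKM in the control. *GCNT7*, *GCNT4* and *GCNT2* each had at most 0.189 FPKM, and *ST6GALNAC1*, which makes the sialyl-Tn antigen, had 0.0847 FPKM with anti-*APC* siRNA and was listed at 0 without.

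The mucins with listed values were scarce. All 13 had a mean under 1 FPKM, so no ratio was judged for any of them. No values were listed under the symbols *MUC3A*, *MUC5AC*, *MUC19* and *MUC22*, so their levels are unknown here. The 9 membrane mucins summed to 1.56 FPKM after silencing and 2.07 FPKM in the control, and the 4 secreted mucins to 0.0507 and 0.0725 FPKM. The most abundant was *MUC1*, the membrane mucin of most epithelia, with 0.681 and 1.29 FPKM. Its mean of 0.983 FPKM lay just under the limit, and it was singled out after its values were seen. Without *MUC1* the other 12 mucins summed to 0.928 FPKM after silencing and 0.852 FPKM in the control, the opposite order to the sum with it. *MUC4*, which binds ERBB2, had 0.464 and 0.410 FPKM, *MUC20* had 0.279 and 0.216 FPKM, and *MUC13*, a mucin of the intestinal surface, had 0.104 and 0.0813 FPKM. Every other listed mucin was under 0.06 FPKM in both libraries. *MUC2*, the gel-forming mucin of the colon, had 0.0141 FPKM after silencing and 0.00860 FPKM in the control. *MUC7* and *MUC15* were listed at 0 in both libraries, and *MUC16* and *MUC21* in the anti-*APC* library. *MUC21* is placed on an alternative haplotype of chromosome 6 in the table.

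The read numbers behind these low values are not listed. Among 3408 genes under 0.5 FPKM but above 0 in both libraries, the ratio divided by 1.10 came within 0.05 percent of a ratio of whole numbers up to 15 in 53.4%. For *MUC2* and *MUC17* the smallest such pair was 3 reads with anti-*APC* siRNA to 2 without. It was 5 to 4 for *MUC5B*, 5 to 12 for *MUC6*, 7 to 6 for *MUC13*, 5 to 6 for *GALNT13*, 1 to 2 for *GCNT3* and 12 to 13 for *GCNT4*. Multiples of these pairs give the same ratio, so they are the least that the values allow and not counts. No such pair was found for *MUC4*, *MUC20*, *MUC12*, *GCNT7* and *GCNT2*. Of the 7 *GALNT* genes under 1 FPKM, *GALNTL5* and *GALNTL6* were listed at 0 in both libraries, *GALNT8*, *GALNT9* and *GALNTL1* in the anti-*APC* library and *GALNTL2* in the untransfected library. None of the 42 members is among the 269 genes marked as failed estimates. The authors' status marks other scarce members, however. *GALNT8*, *GALNTL2*, *GALNTL5*, *MUC2*, *MUC7*, *MUC15*, *MUC17* and *MUC21* are marked as not tested, and *GCNT2* as having low data.

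**Figure D4:**
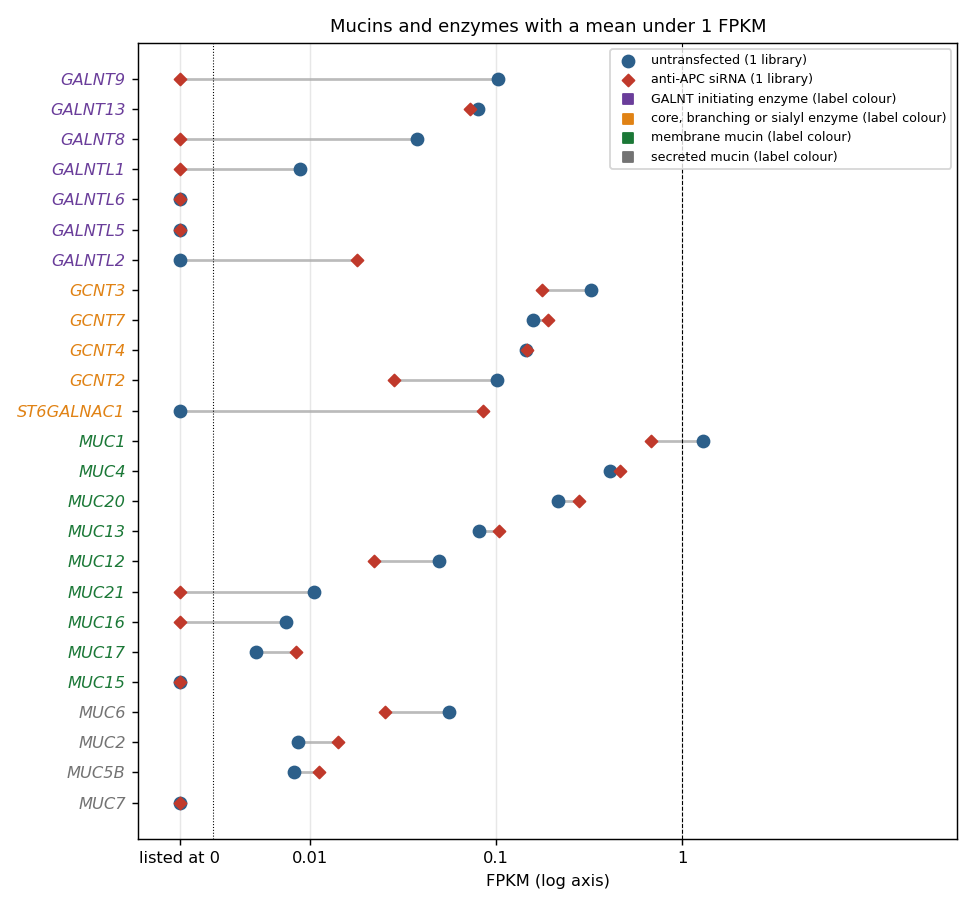
FPKM (log axis, with a separate position for values listed at 0) of the 25 members with a mean under 1 FPKM, 1 library per point, circles for untransfected and diamonds for anti-*APC* siRNA. The dashed line marks 1 FPKM, which only *MUC1* passes, in the untransfected library.

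Other genes of the pathway were taken from 4 lists. Of the 29 genes listed under O-glycan extension and capping, some are not specific to O-glycans, such as *FUT8*, *ST6GAL1* and *ST6GALNAC6*. *WBSCR17* was also placed in this list. Of the 29, 17 had a mean of at least 1 FPKM. By the 1.5-fold rule 1 was lower, *FUT2*, the fucosyltransferase behind secretor status, with 1.15 FPKM after silencing and 1.94 FPKM in the control, and 0 were higher. By any amount 12 of the 17 were lower and 5 higher, and their median log2 ratio was -0.17. The 21 genes of nucleotide sugar supply described here all had at least 1 FPKM, with a median of -0.09. By any amount 15 of them were lower and 6 higher, and at a difference of 25% these counts were 4 and 1. Among all genes 58.6% were lower and 41.4% higher by any amount, and 18.4% and 7.17% at 25%. Of 25 genes of the goblet cell programme, 19 were under 1 FPKM and 7 were listed at 0 in both libraries, *AGR2* and *TFF1* among them. Of the 6 others 1 was higher, *SYTL2*, a RAB27 effector in vesicle transport that is not specific to goblet cells, with 10.1 and 4.12 FPKM, and 0 were lower. By any amount 5 of the 6 were lower, and their median log2 ratio was -0.29. Of 12 genes of other O-glycosylation types in the table, such as *POFUT1* and *OGT*, 10 had at least 1 FPKM, with a median of -0.17. By the 1.5-fold rule 0 of these 10 were lower and 0 higher, and by any amount 9 were lower and 1 higher. The counts at 1.5-fold stand beside 6.61% lower and 2.56% higher among all genes.

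**Figure D5:**
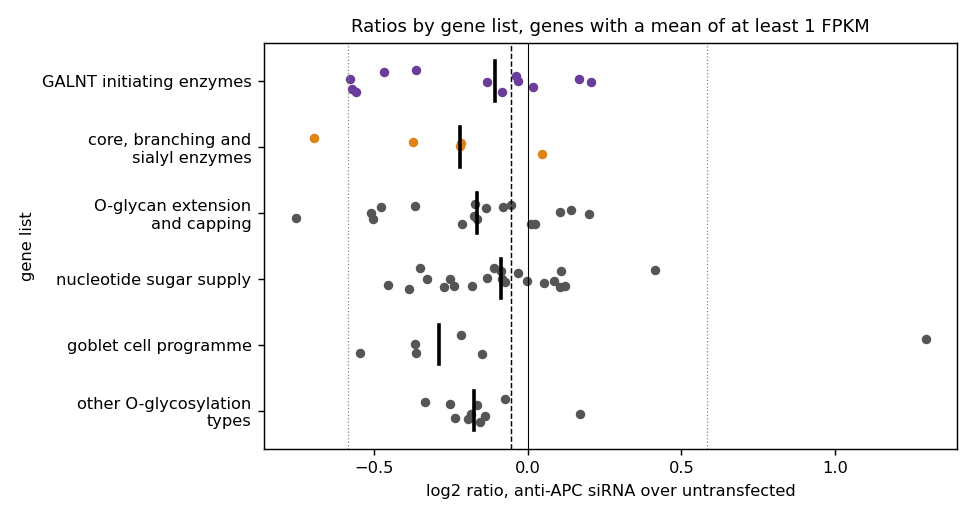
Log2 ratio (anti-*APC* siRNA over untransfected) of each gene with a mean of at least 1 FPKM, by list, with bars at the medians, a dashed line at the median of all genes (-0.05) and dotted lines at 1.5-fold. Past the dotted lines lie *ST6GALNAC2* and *FUT2* on the lower side and *SYTL2* on the higher side.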

How the data were processed

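RNA from HCT-116 cells was sequenced by the authors as single-read TruSeq libraries, 1 per condition. The submitters' processing notes name Cufflinks, Cuffdiff and hg19, without versions. The authors deposited FPKM per gene for the anti-*APC* siRNA and the untransfected library. The table also holds their own comparison (status, natural log ratio, statistic, p-value, q-value and call), of which only the status was read. The depth per library is not given.

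From the deposited FPKM, ratios were computed without a pseudocount, and a gene was counted at a 1.5-fold ratio, a mean of at least 1 FPKM and both values above 0. All members were named, with ratios only for those with a mean of at least 1 FPKM, and other lists by their counted genes. Members and lists were chosen with earlier results of these data known. Alternatives were a difference of 25% and a 2-fold ratio, minimum means of 0, 0.5 and 5 FPKM, pseudocounts of 0.1 and 1 FPKM, 2 rescalings and loci with 1 gene. The GC box word, the relative depth, the sum at the *GALNT4* locus and the mucin sum without *MUC1* were added after the data were seen. Gene coordinates are from GENCODE 44 on GRCh37, with RefSeq synonyms for 3 older symbols. Protein sequences were not used here. In the list of nucleotide sugar supply 1 gene is not reported here and is left out of its counts, median and plot. Python 3.11.15 was used, with pandas 2.3.3, numpy 2.4.6 and matplotlib 3.10.9. The scripts were tested on simulated data.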

Additional observations from a re-analysis of the deposited data

How the results depend on the processing

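With 1 library per condition no result has a replicate error, and whether a value moved was judged against the scatter of all genes of like level (0.5 times their interquartile range). No paired analysis was possible because each condition has 1 library. At a difference of 25%, where 18.4% of all genes were lower and 7.17% higher, the lower genes were 7 of 17 members, 5 of 17 of extension and capping, 4 of 21 of nucleotide sugar supply (and 1 higher), 3 of 6 of the goblet cell programme and 1 of 10 of other O-glycosylation types. At 2-fold (1.37% of all genes lower), 0 members and 0 genes of extension and capping were lower. A minimum mean of 0.5 FPKM (7.71% of all genes lower) gave 2 of 18 members lower, *MUC1* being added, and 1 of 12 genes of other O-glycosylation types. A minimum of 5 FPKM (3.77%) left 0 of 13 members and 0 of 10 genes of extension and capping lower. With no minimum, where 12.8% of all genes were lower and 6.65% higher, 6 of 31 members were lower and 2 higher, with 3 of 25 lower genes of extension and capping, 2 of 14 of the goblet cell programme and 1 of 12 of other O-glycosylation types. A pseudocount of 1 FPKM (3.71% of all genes lower) left 0 members and 0 genes of extension and capping lower. The summed mucin level had a log2 ratio of -0.41, which was 0.12 when *MUC1* was left out, a choice made after seeing the data. With *MUC1* it became -0.24 with a pseudocount of 0.1 FPKM and -0.051 with 1 FPKM, a change that the pseudocount makes by construction at such levels. Of 198 alternative values computed, 176 were unchanged, 21 moved and 1, the mucin sum without *MUC1*, was reversed. Some could not move by construction: a rescaling leaves the share of *GALNT7* as it was. The tally is thus a description of the settings and not a check of the results. In 4 cases, *GALNT1* and *GALNT11* under both rescalings, a log2 ratio near 0 changed sign.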

Other observations

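Enzymes that transfer N-acetylgalactosamine to other acceptors lie outside the family described and were looked at after the members' values were seen. *B3GALNT2*, which acts on the O-mannose glycans of dystroglycan, had 24.0 FPKM after silencing and 17.9 FPKM in the control, 1.34-fold higher. *B3GALNT1*, the globoside synthase, had 9.51 and 7.98 FPKM, and *B4GALNT1*, an enzyme of ganglioside synthesis, had 6.70 and 6.36 FPKM. *B4GALNT4* had 4.85 and 5.40 FPKM. None of these 4 reached 1.5-fold.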
